A study of Mus musculus with 12 samples.

Results

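The genes described here mark the walls of retinal blood vessels. They are 6 endothelial genes, Pecam1, Cdh5, Kdr, Flt1, Tie1 and Cldn5, and 4 genes of mural cells, which are pericytes and smooth muscle cells, namely Pdgfrb, Rgs5, Cspg4 and Acta2. The 10 genes were taken by name out of 18193 genes with a probe set of their own on the array. Every probe set annotated to a single gene of the 10 was kept, which gave 21 probe sets, 10 endothelial and 11 mural. Of these, 12 lay above the median level of all 45037 probe sets and 9 did not, so that part of the set was measured in the lower part of the array's range.

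RNA came from whole neural retina of adult mice aged 10 weeks of the strains C57BL/6NCrSlc (B6) and 129X1/SvJJmsSlc (129), with no transgene or deletion named for either strain. In each strain, normal retina was compared with retinal explants kept for 3 days in vitro (3DIV) with vehicle, and with 3DIV explants that received CHIR99021, an inhibitor of glycogen synthase kinase 3 (GSK3), at the labelled 15 µM. Retina lifted off the sclera and placed on a membrane is a damage model. It has no blood flow, and photoreceptors degenerate in it. Each of the 6 groups had 2 arrays, called biological replicates in the labels, and the number of animals behind each group was not given in the sources used here.

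Endothelial cells line the vessels, and pericytes sit on the capillaries inside a shared basal lamina. Vascular endothelial growth factor (VEGF) acts on endothelial cells through Kdr (VEGFR2), the main signalling receptor, while Flt1 (VEGFR1) binds the same ligand tightly and is also made as a soluble form. Pericytes depend on Pdgfrb, the receptor for endothelial PDGF-B, and retinal endothelium keeps a tight barrier in which Cldn5 seals the junctions. Canonical Wnt signalling, which a GSK3 inhibitor mimics in many cells by stabilizing β-catenin, is needed for this barrier, with Norrin (Ndp) from Müller glia as the ligand in the retina.

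Values are log2 intensities summarized by robust multi-array averaging (RMA), a scale on which 1 unit is a doubling. A difference is given as its estimate ± standard error (SE), and it was called at a Benjamini-Hochberg adjusted p below 0.05 over all probe sets in limma. In RNA of whole tissue, fewer cells of a type and less RNA per cell cannot be told apart. Levels are not compared between probe sets.

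The arrays within a group correlated at 0.9965 to 0.9978. Marker lists of other tissues differed between groups. The summed intensity of 10 pigmented epithelium genes was 4663 to 12410 in normal retina and 386.6 to 501.9 in explants. The 10 lens genes summed to 1156 and 27290 in replicates 1 and 2 of normal 129 retina, against 309.8 to 380.6 on all other arrays, so replicate 2 stood apart. Of 8 listed erythrocyte genes, 4 were measured, and they summed to 66.7 to 80.48 on every array. This was the lowest sum of any list, so that a change in blood content could not be judged from it. The part of pigmented epithelium and lens in the results below was not tested, but each result was recomputed without each array, and the arrays that decided a call are named.

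The largest change among the 21 probe sets after damage was in Kdr (GRCm38.p6, chr5:75932827-75979072). Its probe set 1449379_at read 9.84 and 9.86 in normal B6 retina, 11.40 and 11.30 in B6 3DIV explants, and 10.94 and 10.93 with CHIR99021. In 129 it read 10.12 and 9.85 in normal retina, 11.35 and 11.32 at 3DIV, and 10.595 and 10.71 with CHIR99021. In both strains the 3 states therefore lay in the same order without overlap, normal lowest, CHIR99021 between and vehicle at 3DIV highest. Kdr rose by 1.50 ± 0.09 in B6 (2.83-fold, adjusted p = 5.87e-07) and by 1.35 ± 0.09 in 129 (2.55-fold, adjusted p = 1.21e-06). With CHIR99021 it fell by 0.42 ± 0.09 against vehicle in B6 (adjusted p = 0.0107) and by 0.68 ± 0.09 in 129 (adjusted p = 0.00112). The call in B6 was lost without replicate 1 of B6 3DIV (-0.36, adjusted p = 0.0749) or without replicate 2 of B6 with CHIR99021 (-0.41, adjusted p = 0.0534). The inhibitor difference in 129 less that in B6 was -0.26 ± 0.13 and was not called (adjusted p = 0.392). Outside vessels, Kdr has been described in retinal neurons and Müller glia, which these arrays do not separate from endothelium. The 10 Müller glial marker genes summed to 39440 to 42130 in B6 vehicle explants, against 40300 to 41260 in normal B6 retina and 33610 to 35080 with CHIR99021, and in 129 to 33760 to 34210, 41320 to 41920 and 26530 to 29750. Their part in the Kdr values was not tested.

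Flt1 (chr5:147561604-147726438) was represented by 4 probe sets, and these did not move together. Probe set 1419300_at went from 9.36 and 9.53 in normal B6 retina to 9.94 and 9.84 at 3DIV, and read 9.38 and 9.38 with CHIR99021. In 129 it went from 9.23 and 9.46 to 9.90 and 9.84, and read 9.51 and 9.52 with CHIR99021. Like Kdr, this probe set was highest in vehicle explants of both strains, with no overlap with either other state. It rose by 0.45 ± 0.09 in B6 (adjusted p = 0.00351) and 0.53 ± 0.09 in 129 (adjusted p = 0.00122) after damage. CHIR99021 lowered it by 0.51 ± 0.09 in B6 (log2 difference -0.51, adjusted p = 0.00356). In 129 the difference was -0.35 ± 0.09 (adjusted p = 0.0306), and this call was lost without any 1 of the 4 explant arrays of 129 (-0.38 to -0.32, adjusted p = 0.103 to 0.148).

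The Flt1 probe sets 1440926_at and 1451756_at went the other way after damage. Probe set 1440926_at read 7.38 and 7.40 in normal B6 retina against 6.91 and 6.83 at 3DIV, and 7.52 and 7.38 in normal 129 retina against 6.82 and 6.77 at 3DIV. It fell by 0.52 ± 0.08 in B6 (adjusted p = 0.000524) and by 0.65 ± 0.08 in 129 (adjusted p = 9.35e-05). Probe set 1451756_at read 8.47 and 8.66 against 8.11 and 8.04 in B6, and 8.66 and 8.70 against 8.03 and 8.10 in 129. Its drop was 0.49 ± 0.09 in B6 (log2 difference -0.49, adjusted p = 0.00206) and 0.62 ± 0.09 in 129 (-0.62, adjusted p = 0.000399). Neither probe set was called with CHIR99021, where the values were 6.88 to 7.09 for 1440926_at and 7.96 to 8.18 for 1451756_at over both strains. In 129, 1440926_at with CHIR99021 lay above both vehicle explants (0.24 ± 0.08, adjusted p = 0.076). It was called when only probe sets above the median level were tested in limma (adjusted p = 0.0273). In B6 its difference was 0.07 ± 0.08 (adjusted p = 0.643). The fourth, 1454037_a_at, read 5.61 and 5.30 in normal B6 retina and 5.78 and 6.04 at 3DIV, a difference of 0.45 ± 0.14 (adjusted p = 0.0298) that was not called without replicate 2 of B6 normal (0.30, adjusted p = 0.208) or replicate 2 of B6 3DIV (0.32, adjusted p = 0.196). In 129 its difference after damage was 0.24 ± 0.14 (adjusted p = 0.239). With CHIR99021 this probe set differed from vehicle by 0.10 ± 0.14 in B6 (adjusted p = 0.706). In 129 it read 6.19 and 6.42, above both vehicle explants (0.45 ± 0.14, adjusted p = 0.0594), and was not called. That 129 difference was called with only the compared groups fitted (adjusted p = 0.0407), with trend and robust variance (0.0347) or with array weights (0.0371). The transcript forms of Flt1 that each probe set detects are not given in the sources used here, so a change of Flt1 as a whole has no single direction in these data.

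The endothelial junction and identity genes changed less than Kdr. Cldn5 (chr16:18776847-18778262), the tight junction protein of barrier endothelium, read 7.88 and 7.72 in normal B6 retina, 7.82 and 7.69 at 3DIV and 8.11 and 7.96 with CHIR99021. In 129 it read 7.53 and 7.57, then 8.21 and 7.79, then 8.10 and 7.96. Normal 129 retina was thus below every other group, and Cldn5 rose in 129 by 0.45 ± 0.13 after damage (adjusted p = 0.0201), while the B6 difference was -0.04 ± 0.13 (adjusted p = 0.832). The 129 call was lost without replicate 1 (0.43, adjusted p = 0.0863) or 2 (0.47, adjusted p = 0.0662) of 129 normal, or without replicate 1 of 129 3DIV (0.24, adjusted p = 0.184). The strain difference in this change was 0.49 ± 0.18 and was not called in limma (adjusted p = 0.188).

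Cdh5 (chr8:104101613-104144504), which encodes the adherens junction protein VE-cadherin, was also called after damage in 129 and not in B6. Its probe set 1433956_at read 5.65 and 5.49 in normal 129 retina and 6.03 and 5.87 at 3DIV, a difference of 0.37 ± 0.12 (adjusted p = 0.0394). This call was lost without any 1 of those 4 arrays (0.29 to 0.45, adjusted p = 0.0548 to 0.216). In B6 the same probe set read 5.96 and 5.80 in normal retina and 5.95 and 6.16 at 3DIV, with overlapping groups (0.17 ± 0.12, adjusted p = 0.321). Its values with CHIR99021 were 6.10 and 6.19 in B6 and 5.66 and 5.99 in 129, not called against vehicle. The other Cdh5 probe set, 1422047_at, stayed between 3.97 and 4.34 on all 12 arrays and was called in no comparison.

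Pecam1 (chr11:106654213-106715281), the adhesion molecule CD31 that is used to stain vessels, spanned 0.493 log2 units over all 12 arrays. It read 5.09 and 5.08 in normal B6 retina, 5.24 and 5.27 at 3DIV and 5.03 and 4.94 with CHIR99021, against 4.92 and 5.16, 4.96 and 4.92, and 4.78 and 5.03 in 129. Neither damage nor CHIR99021 gave a call in either strain. Its 1 call was between the strains at 3DIV, where 129 was lower by 0.32 (log2 difference -0.32 ± 0.10, adjusted p = 0.048), and this call was lost without any 1 of 8 arrays, all of B6 and both of 129 3DIV (-0.34 to -0.30, adjusted p = 0.0589 to 0.191). Tie1 (chr4:118471191-118489849), an orphan receptor of the angiopoietin pathway, lay between 3.54 and 4.31 and was called in no comparison. Its damage difference was 0.05 ± 0.15 in B6 and 0.30 ± 0.15 in 129.

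**Figure D1:**
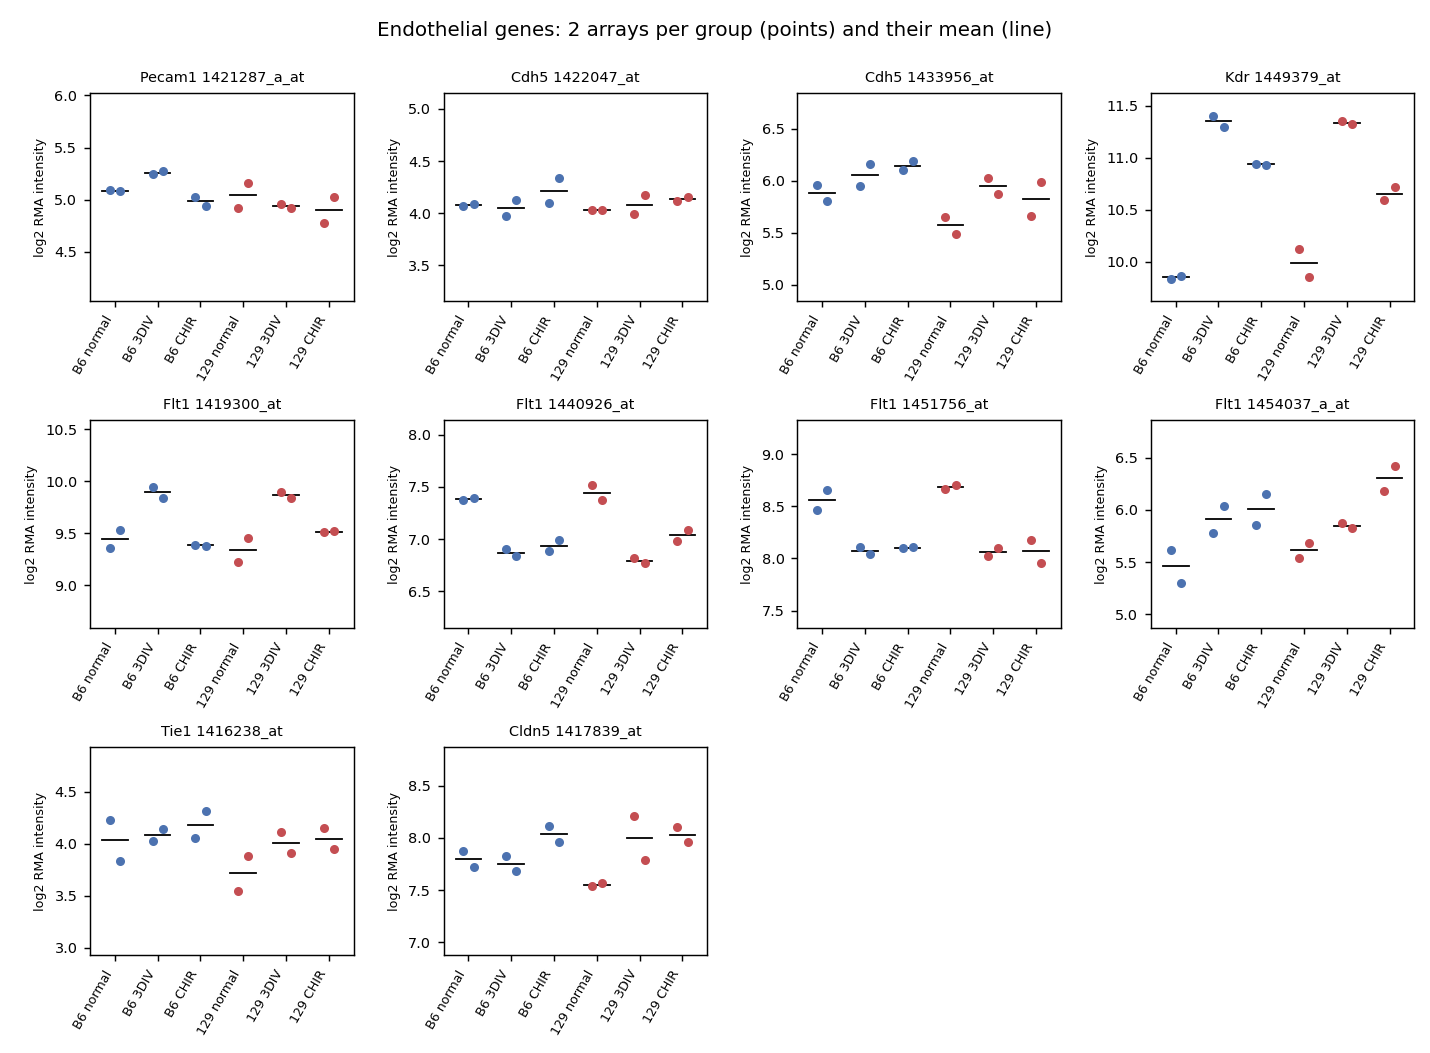
Log2 RMA intensity of each endothelial probe set (y axis, 2 log2 units in each panel) on the 12 arrays, with points for arrays, a line for the group mean, B6 in blue and 129 in red. Kdr and Flt1 1419300_at were highest in vehicle explants (3DIV) of both strains and lower with CHIR99021, whereas Flt1 1440926_at and 1451756_at were highest in normal retina.

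Over the endothelial genes, damage therefore raised 3 and lowered 2 of the 10 probe sets in B6, and raised 4 and lowered 2 in 129. Among all probe sets, 14.9% were called higher and 16.6% lower in B6, and 14.7% and 15.9% in 129. The median difference over the endothelial probe sets was 0.11 in B6 and 0.27 in 129, against -0.02 and -0.03 over all probe sets. With CHIR99021, 2 of the 10 fell in each strain, Kdr and Flt1 1419300_at, and none rose in limma (at an unadjusted p below 0.05, 1 rose in B6 and 2 in 129), while 9.42% of all probe sets were called higher and 9.18% lower in B6, and 5.87% and 6.38% in 129. With so few probe sets, these shares are counts of single genes rather than a property of endothelial genes.

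Turning to mural cells, Rgs5 and Cspg4 are shown with the 250 bases before their start, because a probe set of each was lower in normal 129 than in normal B6 retina and fell with CHIR99021 in B6. The sequences are from RefSeq for GRCm38.p6 (chr1:169655251-169655500 for Rgs5 and chr9:56864854-56865103 for Cspg4, both on the plus strand), and 7 of the 10 genes had an entry. Capitals mark matches on either strand to 4 motifs. The core bound by TCF/LEF factors, the nuclear partners of β-catenin, was searched as CTTTGA, which 13.8% of 32851 promoters of this length held. An ETS core, bound by factors common in endothelium, was searched as CGGAAG and was held by 13.6% of these promoters. A TATA box was searched as TATAAA and was held by 12.4%. A GC box was searched as GGGCGG and was held by 32.7%. Rgs5 held 1 TCF/LEF match near the start and Cspg4 held 2 GC boxes, and neither held any other of these motifs. The motifs were chosen after the expression values had been seen, and a match describes these letters, not binding of a factor.
Rgs5: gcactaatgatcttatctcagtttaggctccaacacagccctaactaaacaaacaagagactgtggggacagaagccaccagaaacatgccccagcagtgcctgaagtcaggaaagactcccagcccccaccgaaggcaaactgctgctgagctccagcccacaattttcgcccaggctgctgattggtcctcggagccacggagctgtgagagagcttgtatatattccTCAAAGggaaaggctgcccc
Cspg4: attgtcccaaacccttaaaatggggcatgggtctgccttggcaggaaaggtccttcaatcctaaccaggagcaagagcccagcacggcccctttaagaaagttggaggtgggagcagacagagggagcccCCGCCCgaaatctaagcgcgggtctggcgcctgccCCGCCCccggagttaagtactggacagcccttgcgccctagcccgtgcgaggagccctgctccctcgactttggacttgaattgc

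Pdgfrb, on chromosome 18, fell with CHIR99021 in both strains. Its probe set 1436970_a_at read 8.07 and 8.12 in B6 3DIV explants and 7.36 and 7.50 with CHIR99021, and 8.03 and 7.71 against 7.05 and 7.27 in 129. No treated array reached a vehicle array of its strain. The drop was 0.66 ± 0.11 in B6 (log2 difference -0.66, 1.58-fold, adjusted p = 0.00216) and 0.71 ± 0.11 in 129 (-0.71, 1.63-fold, adjusted p = 0.00233), and both calls stood without each array. The strains differed in this drop by -0.04 ± 0.15 (adjusted p = 0.934). Probe set 1417148_at of the same gene lay at 6.34 and 6.50 in B6 vehicle explants and 5.93 and 6.19 with CHIR99021, a difference in the same direction of -0.36 ± 0.12 that was not called (adjusted p = 0.0698). In 129 that difference was -0.20 ± 0.12 (adjusted p = 0.358). Fibroblasts express Pdgfrb too, and the summed intensity of the 9 fibroblast and choroid genes was 1923 to 2087 in B6 vehicle explants and 1346 to 1405 with CHIR99021, and 1113 to 1126 and 688.8 to 710.0 in 129. Of these genes 1 was called lower in B6 (11.1%, against 12.5% of all 18193 genes) and 4 in 129 (44.4%, against 7.86%). None was called higher in limma (0 at an unadjusted p below 0.05). Their part in the Pdgfrb values was not tested.

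After damage alone, the Pdgfrb differences had opposite signs in the strains, and neither was called. Probe set 1436970_a_at read 7.77 and 7.81 in normal B6 retina, below both B6 vehicle explants (0.30 ± 0.11, adjusted p = 0.0587). In normal 129 retina it read 8.13 and 8.14, above both 129 vehicle explants (-0.27 ± 0.11, adjusted p = 0.0937). The B6 difference was called when only the compared groups were fitted (adjusted p = 0.0432), among probe sets above the median level (0.0307), after cyclic loess (0.0429), with a trend and robust variance (0.0307), or without either replicate of 129 3DIV (0.0306). The 129 difference was called without replicate 1 of 129 3DIV (-0.43, adjusted p = 0.0213). The test of the difference between these changes gave -0.57 ± 0.15 in limma (adjusted p = 0.0879), so that it missed the limit over all probe sets. It passed when only probe sets above the median level were tested (adjusted p = 0.0408), with a trend and robust variance in limma (adjusted p = 0.0293), or without replicate 1 of 129 3DIV (-0.73, adjusted p = 0.0495).

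Rgs5 (chr1:169655501-169695813), a regulator of G protein signalling that is abundant in pericytes, had 4 probe sets. The probe set 1417466_at read 10.20 and 9.97 in normal B6 retina, 9.71 and 9.80 at 3DIV and 9.32 and 9.42 with CHIR99021. In 129 it read 9.43 and 9.37, then 9.24 and 9.34, then 8.75 and 8.998. Every 129 array lay below every B6 array of the same state, and the CHIR99021 arrays were the lowest of each strain. The step with CHIR99021 was -0.39 ± 0.10 in B6 (adjusted p = 0.0267) and -0.42 ± 0.10 in 129 (adjusted p = 0.025), and the step after damage was -0.33 ± 0.10 in B6 (adjusted p = 0.0326) and -0.10 ± 0.10 in 129 (adjusted p = 0.515). The CHIR99021 call in B6 was lost without any 1 of its 4 explant arrays, while the difference stayed between -0.44 and -0.34 (adjusted p = 0.0622 to 0.141). In 129 it was lost without replicate 1 (-0.47, adjusted p = 0.0695) or 2 (-0.37, adjusted p = 0.151) of 3DIV or without replicate 1 with CHIR99021 (-0.30, adjusted p = 0.183). The damage call in B6 was lost without replicate 1 of B6 normal, where the difference was smallest (-0.22, adjusted p = 0.213), or without replicate 1 (-0.29, adjusted p = 0.16) or 2 (-0.38, adjusted p = 0.0663) of B6 3DIV.

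A second Rgs5 probe set, 1420941_at, also fell in explants, but its strain difference had the opposite sign. It read 7.60 and 7.63 in normal B6 retina, 7.11 and 7.09 at 3DIV and 6.90 and 6.80 with CHIR99021, and fell by 0.52 ± 0.10 after damage (adjusted p = 0.00196), a call that stood without each array. In 129 it read 7.94 and 7.99, 7.70 and 8.01, and 7.42 and 7.48, all above the B6 arrays of the same state. The damage difference in 129 was -0.11 ± 0.10 (adjusted p = 0.448), and the strain difference in the change was 0.41 ± 0.14 (adjusted p = 0.156). With CHIR99021 the 129 value was lower by 0.41 (log2 difference -0.41 ± 0.10, adjusted p = 0.0206), which was lost without replicate 2 of 129 3DIV (-0.25, adjusted p = 0.152) or without replicate 1 (-0.38, adjusted p = 0.117) or 2 (-0.44, adjusted p = 0.0666) of 129 with CHIR99021. In B6 that difference was -0.25 ± 0.10 (adjusted p = 0.0975).

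The remaining mural markers changed in fewer comparisons. Cspg4 (chr9:56865104-56899870), the proteoglycan NG2 of pericytes, read 5.71 and 5.54 in B6 3DIV explants and 5.06 and 5.11 with CHIR99021 on probe set 1423341_at. This drop of 0.54 ± 0.09 (log2 difference -0.54, adjusted p = 0.00257) stood without each array. In 129 the corresponding arrays read 5.34 and 5.35, then 5.24 and 5.11 (-0.17 ± 0.09, adjusted p = 0.283), and the difference between the strains was 0.37 ± 0.13 (adjusted p = 0.22). After damage Cspg4 rose in 129 from 4.91 and 5.13 (0.32 ± 0.09, adjusted p = 0.0208), a call lost without replicate 1 of 129 normal (0.22, adjusted p = 0.174) or without replicate 1 (0.33, adjusted p = 0.0837) or 2 (0.32, adjusted p = 0.0824) of 129 3DIV. NG2 is also found on oligodendrocyte precursors, which are scarce in mouse retina. Every Cspg4 call came from probe set 1423341_at, which was not above the median level of all probe sets. The other probe set, 1450944_at, was above that level, spanned 0.264 log2 units over the 12 arrays and was called nowhere.

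Acta2 (chr19:34240336-34255585), the smooth muscle actin of arterioles, fell after damage in both strains on probe set 1416454_s_at. It read 6.62 and 6.76 in normal B6 retina and 6.06 and 5.92 at 3DIV (-0.70 ± 0.17, 1.63-fold, adjusted p = 0.00951), and 6.35 and 7.01 in normal 129 retina and 5.98 and 6.19 at 3DIV (-0.60 ± 0.17, 1.51-fold, adjusted p = 0.0221). With CHIR99021 it read 6.05 and 6.21 in B6 and 5.91 and 5.97 in 129, with no call against vehicle. The highest value, 7.01, was on replicate 2 of normal 129 retina, the array with the lens signal of 27290, and without it the 129 difference was -0.27 (adjusted p = 0.162). The 129 call was also lost without replicate 1 of 129 3DIV (-0.49, adjusted p = 0.141), and the B6 call without replicate 2 of B6 normal (-0.63, adjusted p = 0.0618) or of B6 3DIV (-0.63, adjusted p = 0.0665). The other probe sets of Acta2, 1444105_at and 1456658_at, lay between 3.04 and 4.34 and were called nowhere.

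**Figure D2:**
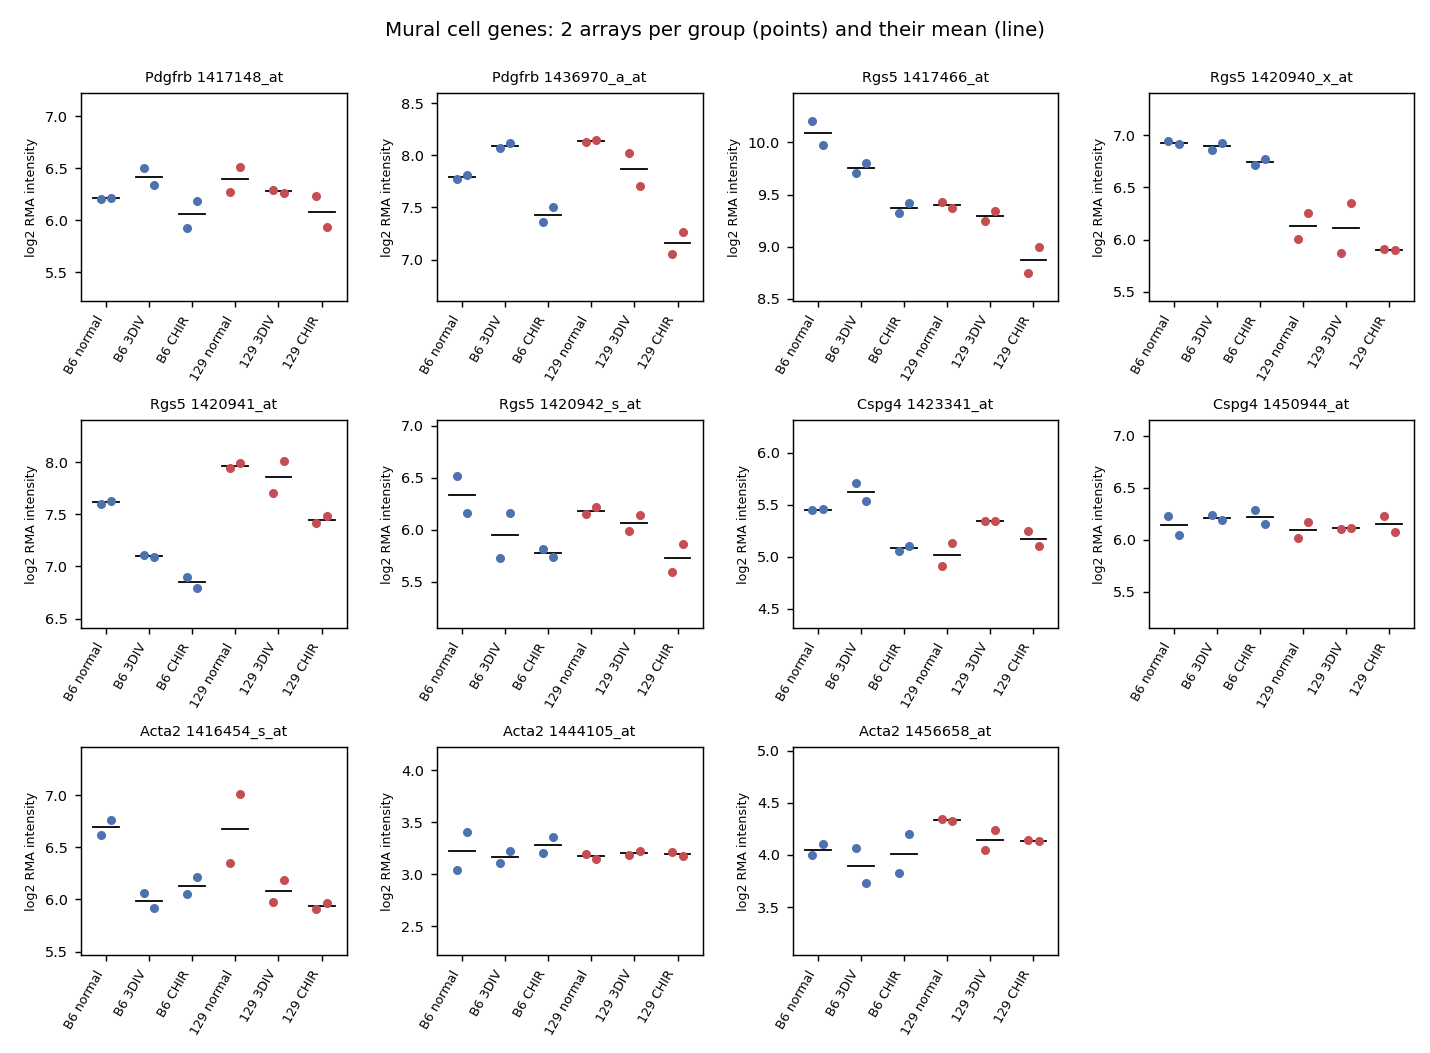
Log2 RMA intensity of each mural cell probe set (y axis, 2 log2 units in each panel) on the 12 arrays, drawn as points with a line for the group mean, B6 in blue and 129 in red. Pdgfrb 1436970_a_at was lowest with CHIR99021 in both strains, Acta2 1416454_s_at was highest in normal retina, and Rgs5 1417466_at and 1420941_at separated the strains in opposite directions.

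Of the 11 mural probe sets, 3 fell in damaged B6 retina and none rose in limma (1 at an unadjusted p below 0.05), and in 129 there was 1 in each direction. CHIR99021 lowered 3 in each strain (27.3%, against 9.18% of all probe sets in B6 and 6.38% in 129) and raised none. In B6 these 3 were Pdgfrb 1436970_a_at, Rgs5 1417466_at and Cspg4 1423341_at, and in 129 Pdgfrb 1436970_a_at and the Rgs5 probe sets 1417466_at and 1420941_at. They came from 3 genes in B6 and 2 in 129, and each of the Rgs5 calls was lost without single arrays, as given above. The median difference with CHIR99021 over the mural probe sets was -0.17 in B6 and -0.20 in 129, against 0.0025 (B6) and 0.01 (129) over all probe sets. Taking endothelial and mural probe sets as 1 set of 21, 14.3% were called higher and 23.8% lower after damage in B6, and 23.8% and 14.3% in 129, against 14.9% and 16.6%, and 14.7% and 15.9%, of all probe sets. With CHIR99021, 23.8% were called lower in each strain and none higher, against the 9.18% and 6.38% lower and the 9.42% and 5.87% higher among all probe sets. At an unadjusted p below 0.05 in limma, 1 was higher and 8 lower in B6, and 2 and 5 in 129. Several probe sets share a gene, so that these shares, too, are counts of single genes rather than a property of mural or vessel genes. The damage and inhibitor comparisons share the vehicle explants, so that a vehicle value that is high by error raises a gene in the former and lowers it in the latter.

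**Figure D3:**
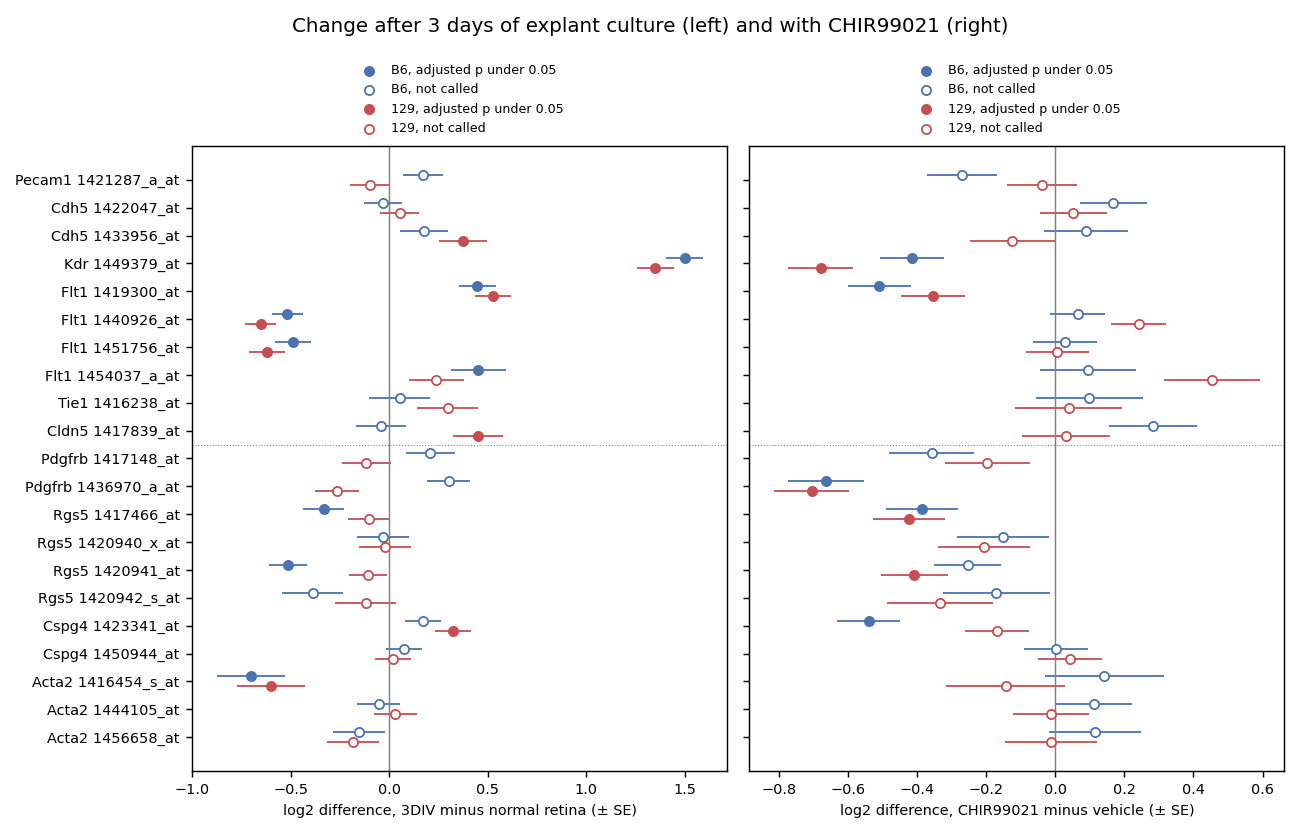
Log2 difference ± SE of every probe set for 3DIV minus normal (left) and CHIR99021 minus vehicle (right) in B6 (blue) and 129 (red), with filled points for an adjusted p below 0.05. Kdr had the largest rise after damage, at 1.50 and 1.35, and every filled point on the right lay below 0.

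Between the strains, most of the called differences were those of Rgs5. On probe set 1417466_at, 129 minus B6 was -0.69 ± 0.10 in normal retina (adjusted p = 0.00154), -0.46 ± 0.10 at 3DIV (adjusted p = 0.0106) and -0.50 ± 0.10 with CHIR99021 (adjusted p = 0.011). The normal call stood without each array. The 3DIV call was lost without replicate 2 of B6 3DIV (-0.41, adjusted p = 0.0757) or replicate 1 of 129 3DIV (-0.41, adjusted p = 0.0738), and the CHIR99021 call without replicate 2 of B6 (-0.45, adjusted p = 0.0789) or replicate 1 of 129 (-0.37, adjusted p = 0.108) with CHIR99021. Probe set 1420940_x_at read 6.72 to 6.94 on the 6 B6 arrays and 5.87 to 6.35 on the 6 arrays of 129, with no overlap. Its strain difference was -0.80 ± 0.13, -0.79 ± 0.13 and -0.84 ± 0.13 in the 3 states (adjusted p = 0.00283, 0.00205 and 0.00206), and it was called for neither damage nor CHIR99021.

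Probe set 1420941_at of Rgs5 was higher in 129 by 0.35 ± 0.10 in normal retina (adjusted p = 0.0404), 0.76 ± 0.10 at 3DIV (adjusted p = 0.000353) and 0.60 ± 0.10 with CHIR99021 (adjusted p = 0.00225). The last 2 calls stood without each array, whereas the normal call was lost without any 1 of 8 arrays, those of both normal groups, B6 3DIV and 129 with CHIR99021 (0.33 to 0.37, adjusted p = 0.0556 to 0.165). The fourth probe set, 1420942_s_at, lay between 5.59 and 6.51 and was called between the strains in no state. Rgs5 thus had probe sets that were lower, higher and not called in 129. Whether sequence differs between the strains under these probes was not tested, and the transcript ends they detect are not given in the sources used here, so no strain difference of the Rgs5 gene as a whole can be stated.

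Beside Rgs5, a strain difference in Cspg4 and in Pecam1 was called in 1 state each. Cspg4 1423341_at was lower in normal 129 retina by 0.43 (log2 difference -0.43 ± 0.09, adjusted p = 0.0114), and the call was lost without replicate 1 (-0.43, adjusted p = 0.0513) or 2 (-0.43, adjusted p = 0.0517) of B6 normal or replicate 1 of 129 normal (-0.32, adjusted p = 0.104). Pecam1 was called at 3DIV, as given above. In total, 1 of the 21 probe sets was higher and 3 lower in normal 129 retina, 1 and 3 at 3DIV, and 1 and 2 with CHIR99021. Over all probe sets, 6.07% were called higher and 5.45% lower in normal 129 retina, 11.4% and 8.57% at 3DIV, and 6.01% and 4.88% with CHIR99021. The other 7 genes were called between the strains in no state in the reported fit. Among them, Pdgfrb 1436970_a_at was higher in normal 129 retina without overlap (0.34 ± 0.11, adjusted p = 0.0725). With CHIR99021, Kdr was lower in 129 without overlap (-0.28 ± 0.09, adjusted p = 0.0867). In limma both were called among probe sets above the median level (adjusted p = 0.0388 and 0.0414). They were also called with trend and robust variance (0.0324 and 0.0151).

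**Figure D4:**
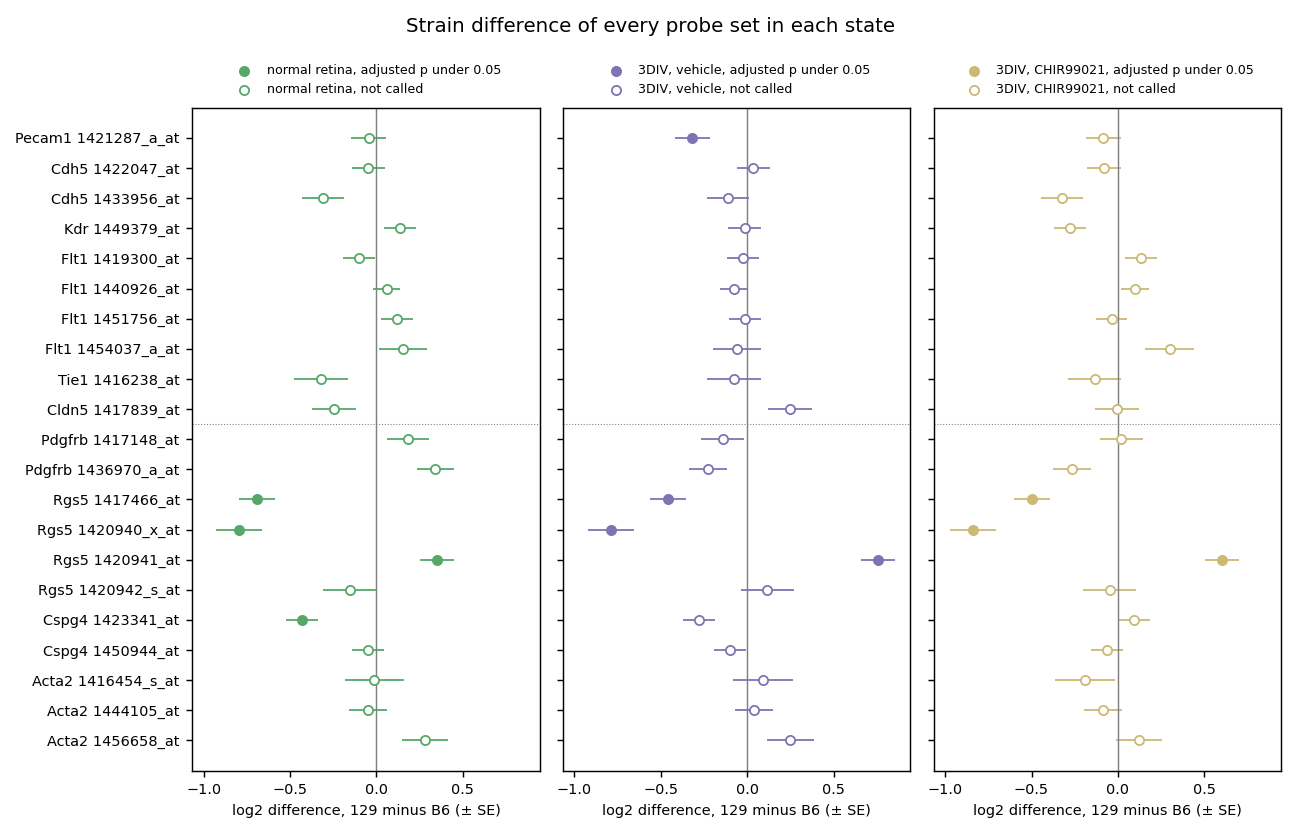
Log2 difference ± SE of 129 minus B6 for every probe set in normal retina, in vehicle explants and in explants with CHIR99021, on 1 common scale, with filled points for an adjusted p below 0.05. The Rgs5 probe sets 1417466_at and 1420940_x_at lay below 0 and 1420941_at above 0 in all 3 states, and most other points lay near 0.

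No probe set of the 10 genes was called for a strain difference in its response to damage or to CHIR99021 in limma, where 2.58% and 1.35% of all probe sets were called. At an unadjusted p below 0.05, there were 3 for damage, Cldn5, Pdgfrb 1436970_a_at and Rgs5 1420941_at, and 1 for CHIR99021, Cspg4 1423341_at. A response called in only 1 strain, such as that of Cldn5 or Rgs5 after damage, was therefore not shown to differ between the strains.

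Other genes of vessels, taken from lists in which the probe set with the highest mean stood for its gene, moved in both directions after damage. Over all 18193 genes taken in the same way, 19.3% were called higher and 16.9% lower in B6, and 19.1% and 17.0% in 129. Of 27 further endothelial genes, 6 rose and 6 fell in B6 (22.2% each), and 7 rose and 5 fell in 129 (25.9% and 18.5%), shares near those of all genes. Ctla2a, a protease inhibitor, rose by 1.71 ± 0.10 in B6 and 1.70 ± 0.10 in 129 (adjusted p = 2.84e-07 and 2.68e-07). Cav1, the coat protein of caveolae, rose by 0.97 ± 0.07 and 1.37 ± 0.07 and fell with CHIR99021 by 0.68 ± 0.07 in B6 and 0.40 ± 0.07 in 129, the order of states seen for Kdr. The cells behind the Cav1 signal are not separated by these arrays, and the part of Müller glia in it was not tested. Sox17, a transcription factor of arterial endothelium, fell by 1.52 ± 0.18 and 1.22 ± 0.18, and Ptprb, the phosphatase VE-PTP, by 1.53 ± 0.12 in B6. In 129 the count of rising genes was 4 without replicate 1 of 129 3DIV, and that of falling genes 3 without replicate 2.

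Genes of the blood-retina barrier mostly fell after damage. Of 14 genes, 8 (57.1%) fell in each strain, and 2 rose in B6 and 1 in 129 (2 in 129 without either replicate of B6 normal). The organic anion transporters led the list. Slco1c1, which carries thyroid hormone, fell by 2.49 ± 0.14 in B6 and 1.79 ± 0.14 in 129, and Slco1a4 by 1.86 ± 0.17 and 1.70 ± 0.17. Abcb1a, the efflux pump P-glycoprotein, fell by 1.46 ± 0.12 in B6. Exceptions were Abcg2, another efflux pump, which rose by 1.15 ± 0.08 in 129, and Cldn5 itself, whose values are given above. The median difference of the list was -0.42 in B6 and -0.38 in 129. Pigmented epithelium genes fell in the same explants, 9 of 10 in each strain, with medians of -3.34 in B6 and -2.04 in 129. Their part in the fall of the barrier genes was not tested.

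Among 18 further mural genes, 5 (27.8%) fell in each strain, and 2 rose in B6 and 1 in 129. Vtn (vitronectin), a matrix protein abundant in pericytes, fell by 1.32 ± 0.08 in B6 and 1.15 ± 0.08 in 129. With CHIR99021 it fell by a further 0.41 ± 0.08 in B6 and 0.62 ± 0.08 in 129. The B6 call with CHIR99021 was lost without replicate 2 of B6 3DIV or of B6 with CHIR99021. Photoreceptors also express Vtn, and 9 of 9 rod genes fell after damage in each strain. Their part in the fall of Vtn was not tested. Higd1b, another pericyte gene, fell by 0.95 ± 0.16 in B6 and by 0.74 ± 0.16 in 129, where the call was lost without replicate 1 of 129 3DIV. The number of falling genes was 3 in B6 without replicate 2 of B6 normal or either replicate of B6 3DIV, and 3 in 129 without replicate 1 of 129 normal or of 129 3DIV. In 129 the number of rising genes was 2 without either replicate of B6 3DIV or of 129 with CHIR99021.

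Among 21 angiogenic ligands and receptors, 7 rose (33.3%) and 4 fell (19.0%) in B6, and 4 rose and 4 fell (19.0% each) in 129. The ligands of Kdr and Flt1 moved apart. Pgf (placental growth factor), which binds Flt1 and not Kdr, rose by 2.19 ± 0.09 in B6 and 1.16 ± 0.09 in 129 (adjusted p = 3.26e-08 and 3.27e-06), while Vegfa, the ligand of both receptors, fell by 0.71 ± 0.10 and 1.06 ± 0.10. With CHIR99021, Pgf fell in B6 by 1.30 ± 0.09 and by less in 129 (129 less B6, 0.89 ± 0.13), and Vegfa rose in 129 by 0.65 ± 0.10. Esm1 (endocan), an endothelial proteoglycan, rose with CHIR99021 by 2.03 ± 0.12 in B6 and 0.81 ± 0.12 in 129. In B6 the number rising after damage was 4 without replicate 2 of B6 normal, and the number falling was 2 without replicate 1 of B6 3DIV. In 129 the number falling was 1 or 2 without replicate 1 of 129 normal or either replicate of 129 3DIV.

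Of 14 Norrin and Notch signalling genes, 3 rose (21.4%) and 2 fell (14.3%) in B6 and 6 rose (42.9%) and 2 fell (14.3%) in 129 (1 fell without replicate 2 of 129 normal). Ndp rose by 1.60 ± 0.08 in B6 and 2.76 ± 0.08 in 129, and the Notch ligand Jag1 fell by 1.92 ± 0.16 and 1.41 ± 0.16. Of 11 adhesion molecules, 7 rose (63.6%) and 2 fell (18.2%) in B6 and 6 rose (54.5%) and 2 fell (18.2%) in 129. Vcam1, which binds leukocytes, rose by 2.01 ± 0.09 and 1.68 ± 0.09, and Icam1 by 1.66 ± 0.10 in B6. Vcam1 is made by Müller glia and other cells as well, and microglial genes rose in the same explants, 10 of 12 in B6 and 9 of 12 in 129. Their summed intensity was 1109 to 1187 in normal B6 retina and 4436 to 4948 at 3DIV, and 723.2 to 748.7 and 2050 to 2130 in 129. The part of microglia in these changes was not tested.

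Of 13 basal lamina genes, 6 rose in B6 (46.2%) and 7 in 129 (53.8%), and none fell in limma (at an unadjusted p below 0.05, 0 in B6 and 1 in 129). Fn1 (fibronectin) rose by 2.13 ± 0.08 and 1.28 ± 0.08 after damage and fell with CHIR99021 by 1.21 ± 0.08 and 1.07 ± 0.08. In 129 its other probe set had the opposite sign after damage. Col4a1, a chain of type IV collagen, rose by 1.11 ± 0.11 in B6. The number rising was 3 in B6 without replicate 2 of B6 3DIV, and in 129 it was 3 without replicate 1 of 129 normal and 2 without either replicate of 129 3DIV. Without replicate 1 of 129 normal, 1 gene fell. Fibroblasts make many of these proteins, and 9 fibroblast and choroid genes had a summed intensity of 1073 to 1246 in normal B6 retina and 1923 to 2087 at 3DIV, and 634.8 to 946.5 and 1113 to 1126 in 129. Their part was not tested.

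With CHIR99021, 4 of the 27 further endothelial genes fell in B6 (14.8%) and 3 in 129 (11.1%), none rose, and 3 of the 18 further mural genes (16.7%) fell in each strain and none rose in limma. Over all 18193 genes, 12.5% were called lower in B6 and 7.86% in 129, and 8.59% and 7.28% higher. The falling shares in B6 were thus near that of all genes. At an unadjusted p below 0.05, the rising endothelial genes were 0 in B6 and 1 in 129, and the rising mural genes 1 and 0. The endothelial count in B6 was 1 without replicate 1 of B6 3DIV and 2 without either replicate with CHIR99021. In 129 it was 1 without either replicate of 129 normal, replicate 1 of 129 3DIV or replicate 2 with CHIR99021, and 1 gene rose without either B6 replicate with CHIR99021. The mural count in B6 was 1 without replicate 2 of B6 3DIV, where 1 gene also rose, and 0 without replicate 2 with CHIR99021. The falling mural genes named by size were Kcnj8, a pericyte potassium channel, at -0.63 ± 0.13 in B6 and -0.58 ± 0.13 in 129, Vtn, Mcam in B6 and Myl9 in 129. Mcam in B6 lay at the limit (-0.41 ± 0.13, adjusted p = 0.0499 in limma). Its call was lost in 11 of 12 omissions of an array. It was also lost with a replicate block, with only the compared groups fitted or with array weights. Kcnj8 was called in both strains, but the B6 call was lost without replicate 2 of B6 with CHIR99021 (adjusted p = 0.0519), and the 129 call without replicate 2 of 129 3DIV or of 129 with CHIR99021 (highest adjusted p = 0.124).

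Counts in the other lists with CHIR99021 were as follows. The barrier genes had 3 higher and 1 lower in B6 and 1 and 1 in 129, with Slc7a5, an amino acid transporter, higher by 0.70 ± 0.11 and 0.81 ± 0.11. Angiogenic genes had 4 higher and 3 lower in B6 and 3 and 1 in 129, and Norrin and Notch genes 1 and 1 in B6 and 0 and 3 in 129. Adhesion genes had 2 higher and 3 lower in B6 and 0 and 1 in 129, and basal lamina genes 1 and 1 in B6 and 1 and 3 in 129. Most of these counts moved by over 1.5 times without 1 of the explant arrays of the strain, and some without 1 array of another group, so that they are given as counts of these arrays only. Among 18193 genes, 8.59% were called higher and 12.5% lower in B6, and 7.28% and 7.86% in 129. In B6 the adhesion list held 18.2% higher and 27.3% lower, and the angiogenic list 19.0% and 14.3%. Shares above those of all genes also occurred elsewhere. The barrier list held 21.4% higher in B6. In 129, 23.1% of the basal lamina and 21.4% of the Norrin and Notch genes were lower. With so few genes, and counts that moved with single arrays, these shares are not a result about any list.

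**Figure D5:**
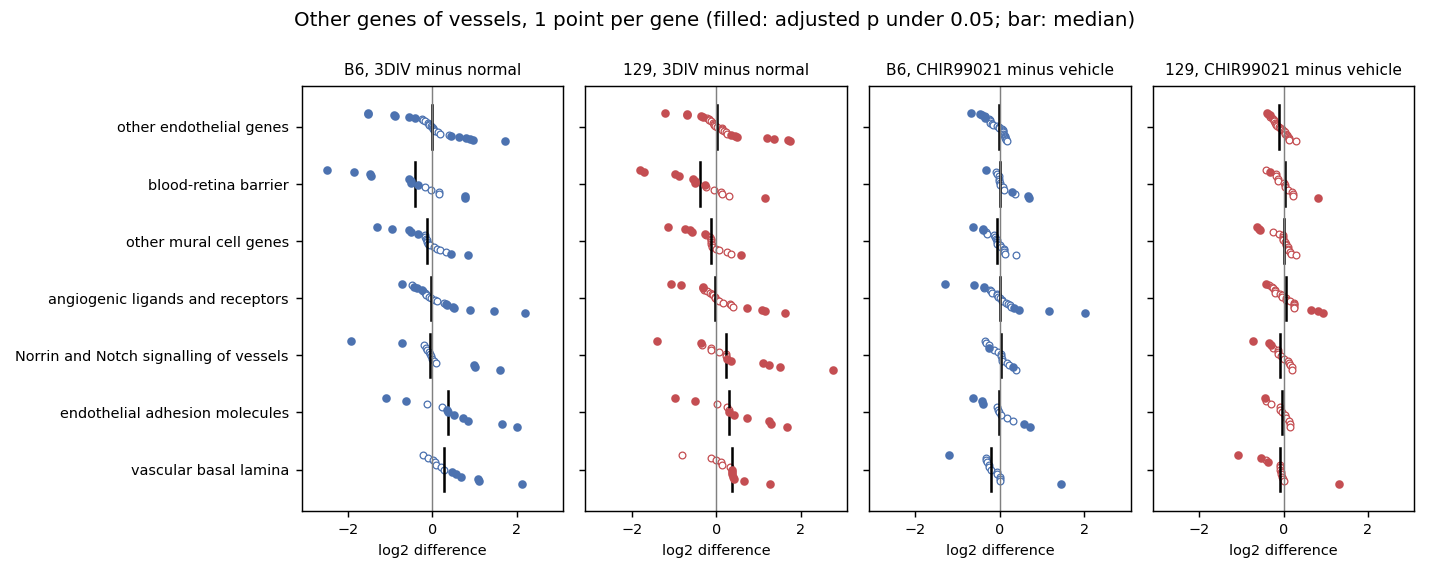
Log2 difference of each gene (1 point per gene, a bar for the median of the list) in 7 lists of vessel genes, for 3DIV minus normal and CHIR99021 minus vehicle in each strain. Barrier genes lay mostly below 0 after damage, with medians of -0.42 and -0.38, and adhesion and basal lamina genes mostly above 0, with medians of 0.28 to 0.37.

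The genes most like Cdh5 and Rgs5 over the 6 group means were sought by the root mean square difference of centred log2 means, among 18192 genes. Nearest to Cdh5 were Aldh7a1 (0.036), Platr30, Gm21953, Serpina1b and Chchd10 (0.058), but 162 genes lay within 0.1 of Cdh5, among them Tie1 at rank 16. The group means of Cdh5 spanned 0.57 log2 units. Nearest to Rgs5 1417466_at were Helz (0.054), Gng4, Sft2d3, Pdgfd and Gm12758 (0.099), and only 5 genes lay within 0.1. Of the other mural genes, Acta2 stood at rank 3338, Pdgfrb at rank 3529 and Cspg4 at rank 6765 in likeness to Rgs5. This measure depends on the size of a change as well as on its shape. The group means of Rgs5 1417466_at spanned 1.22 log2 units. Those of Cspg4 on 1450944_at, the probe set that stood for it, spanned 0.12. These ranks therefore cannot tell whether the mural genes shared 1 shape over the 6 groups.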

How the data were processed

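Affymetrix mouse genome arrays (Mouse430_2) were hybridized with RNA labelled by a 3′ in vitro transcription kit. The authors summarized them with RMA and deposited linear intensities, which were taken to log2 here. The RMA version was not given in the sources used here. For CHIR99021 the labelled dose was 15 µM, and the study's methods name another dose beside it. The 12 arrays were grouped by their labels, and 64 control probe sets of 45101 were left out.

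Group means were estimated from all 12 arrays together in limma 3.58.1 under R 4.3.3 (eBayes, 4.69 prior and 6 residual degrees of freedom). Benjamini-Hochberg adjustment ran over 45037 probe sets in each of 9 comparisons. The steps were tested on simulated data. The number of arrays limits the precision, and p-values measure only the spread between these samples.

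Probe sets with 1 gene symbol (34945) were named, 932 with several and 9160 without were not. The genes and lists were chosen with earlier results of these data known. Every member probe set was reported. From each list, up to 4 called genes with the largest difference could be named, and among these, genes whose calls stood without each array were preferred after results had been seen, so that printed values are steadier than those of list genes at large. A list gene printed for 1 strain was thus not shown to be unchanged in the other. Fits with other normalization, variance, filter or samples are described in the closing section. Tables and plots were made with Python 3.11.15, pandas 2.3.3 and matplotlib 3.10.9.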

Additional observations from a re-analysis of the deposited data

Results flagged for a closer look

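A strain difference in the response to damage was found by the interaction test in limma for 11 genes of the vessel lists, and in the response to CHIR99021 for 3. The 7 lists held 11 to 27 measured genes each. Over all probe sets, 2.58% and 1.35% were called in these 2 tests, and the share over 1 probe set per gene was not computed. None of the 21 probe sets of the 10 marker genes was called, which at these shares is no result about the marker genes. Values are log2 changes of 129 less those of B6. After damage, Ndp differed by 1.15 ± 0.11 (SE, adjusted p = 0.000489), Notch4 by 1.71 ± 0.24 (0.00517), Pgf by -1.03 ± 0.13 (0.00298), Fn1 by -0.84 ± 0.11 (0.00465) and Icam1 by -0.93 ± 0.14 (0.00954), and these 5 stood without each array. Those that were lost without some arrays were Ets1 (0.95, adjusted p = 0.0177, lost in 5 of 12 omissions), Ptprb (0.84, 0.0252, lost in 7), Thbd (1.38, 0.0167, lost in 4), Myl9 (-0.68, 0.0286, lost in 6), Pdgfa (0.58, 0.0424, lost in 9) and Col4a1 (-0.74, 0.0411, lost in 11). With CHIR99021, Pgf differed by 0.89 ± 0.13 (adjusted p = 0.0105) and Esm1 by -1.21 ± 0.18 (0.0111), which both stood without each array, and Ndp by -0.61 ± 0.11 (0.0235), which was lost in 7 omissions. For Pgf and for Ndp, both differences share the vehicle explants and had opposite signs, and an error in those arrays would move the damage and the CHIR99021 difference in opposite directions. The paper lists Notch4, Ndp, Ets1 and Thbd among its candidate proliferation promoters, and Pgf among its candidate repressors. It places Notch4 in reactive Müller glia and Ndp in Müller glia. A place in a vessel list does not assign a signal to vessels, because these arrays do not separate cell types.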

How the results depend on the processing

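Of 37 called differences of the 10 genes, 20 stood under all alternatives and without each of the 12 arrays, 17 were lost without at least 1 array and 9 under at least 1 other alternative, and none was reversed. Leaving out an array leaves 1 in its group, which is assumed to vary like the other groups. The replicate numbers did not pair the samples (correlation of deviations -0.107 to 0.0436), and with a replicate block 2 of the 37 calls were lost, Pecam1 between strains at 3DIV (adjusted p = 0.0534) and Cdh5 after damage in 129 (0.0522). Fitting only the compared groups lost 7, cyclic loess 2, and a trend with robust variance and array weights 1 each.

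Counts of the 21 probe sets moved as follows. Higher in normal 129 retina (1 in the reported fit), there were 0 with only the compared groups, with cyclic loess or with array weights, and 2 with probe sets above the median level or with trend and robust variance. Higher after damage in 129 (5), there were 3 with probe sets above the median level. Higher with CHIR99021 in 129 (0), there was 1 with only the compared groups, with probe sets above the median level, with trend and robust variance or with array weights, a Flt1 probe set each time. Lower with CHIR99021 in 129 (5), there were 3 with only the compared groups. For a strain difference in the damage response, lower (0), there was 1, Pdgfrb, with probe sets above the median level or with trend and robust variance.

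Without 1 array, the counts higher and lower ranged from 0 to 2 and 2 to 3 between strains in normal retina, 1 to 2 and 1 to 4 at 3DIV, and 1 to 1 and 1 to 3 with CHIR99021. After damage they ranged from 2 to 4 and 4 to 5 in B6, and 2 to 5 and 2 to 3 in 129. With CHIR99021 they ranged from 0 to 0 and 3 to 6 in B6, and 0 to 1 and 2 to 5 in 129. For the strain difference in the damage response they were 0 and 0 to 1, and for that in the CHIR99021 response 0 and 0. Of 165 named list differences, 96 stood everywhere. Signal over background of probe sets near the array's lower end limits what can be seen of Tie1, Pecam1, Cdh5 and Cspg4 1423341_at.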
